A study of Homo sapiens with 6 samples.

Results

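The 38 genes described here encode the antiviral proteins that cells make in answer to interferon. They were taken from a fixed list of interferon-stimulated gene symbols, which was chosen with earlier results of these data known. All 38 were found among the 60612 gene identifiers of a count table made from 6 RNA sequencing libraries. The libraries come from U937, an established human myeloid cell line with wild-type genotype that the labels call acute myeloid leukemia. Cells of both groups were held in serum-free RPMI-1640 for 36 h, 3 libraries with 1 µM of a compound known only as B2 and 3 with its DMSO vehicle. The series title names S100A9 as the target, and the design asks how B2 alters gene expression. Each group has replicate numbers 1, 2 and 3. The meaning of a number is not stated, nor is it stated that the libraries of a group were separate cultures. All p-values therefore rest on library-to-library spread that could be technical.

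Total counts ran from 61150740 to 78431054 per library. At that depth 3 counts, the floor used here for a gene at 0, correspond to 0.0386 to 0.0537 CPM, the usual depth-scaled count (counts over the scaled library total), a limit that covers counting error only. Transcripts of early myeloid cells were abundant in every library, including ELANE, AZU1, PRTN3, CTSG, CD33, SPI1 and CEBPA, while MPO reached no more than 1.67 CPM. CD3D, CD3E and CD3G of T cells and MS4A1 of B cells were at 0 throughout. Both libraries numbered 3 stood apart from the other 4 in many genes, in both treatments. Results are therefore given by treatment and by number.

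Type I interferons bind the receptor IFNAR1 with IFNAR2 and, through the kinases JAK1 and TYK2, switch on a transcription factor complex that holds STAT2 and IRF9. The complex binds the interferon-stimulated response element in promoters of genes such as those listed. Their products act on different steps of viral growth: IFIT proteins bind foreign RNA, OAS enzymes make a second messenger, 2-5A, in answer to double-stranded RNA, MX proteins are dynamin-like GTPases that trap viral components, and IFITM proteins and tetherin act at membranes. Myeloid cells can hold a basal level of these transcripts without added interferon.

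RefSeq promoter windows (GRCh38.p14, 250 bases before to 50 after a start site) were matched for 30 of the 38 genes, and 10 of these had more than 1 window. The core of the response element (GAAA, any 2 bases and GAAA again, on either strand, overlapping matches allowed) lay in at least 1 window of 23 of the 30 (76.7%), against 1195 of 27305 genes in the whole table (4.38%). A match describes the letters and is no measure of binding. The stretches below come from genes that span the range of behaviour in the libraries, from IFI27 and IFI6, which differed strongly between replicate numbers, to HERC5, which differed little, and EPSTI1, nearly unread. Capitals mark the matches. Each stretch is written on the strand given after it, and a run that begins with TTTC is a match on the other strand.
IFI27: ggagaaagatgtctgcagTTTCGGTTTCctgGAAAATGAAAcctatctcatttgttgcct
IFI6: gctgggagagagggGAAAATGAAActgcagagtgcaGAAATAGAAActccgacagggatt
ISG15: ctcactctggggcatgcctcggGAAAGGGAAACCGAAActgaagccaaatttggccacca
IFIT1: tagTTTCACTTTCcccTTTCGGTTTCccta
BST2: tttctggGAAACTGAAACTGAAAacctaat
IFITM3: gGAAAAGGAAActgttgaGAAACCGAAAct
HERC5: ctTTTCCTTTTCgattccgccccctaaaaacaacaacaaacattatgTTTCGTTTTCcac
EPSTI1: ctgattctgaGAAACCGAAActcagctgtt

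These stretches lie at chr14:94110610-94110669 (plus strand, IFI27), chr1:27672262-27672321 (minus, IFI6), chr1:1013362-1013421 (plus, ISG15), chr10:89392504-89392533 (plus, IFIT1), chr19:17405738-17405767 (minus, BST2), chr11:320884-320913 (minus, IFITM3), chr4:88456998-88457057 (plus, HERC5) and chr13:42992272-42992301 (minus, EPSTI1). Of the matches shown, the one nearest the start site lies 85 bases before it in IFI27, 83 in IFI6, 97 in ISG15 and 40 in EPSTI1. In ISG15 and in BST2 the 2 matches overlap each other. The 20 tested genes with a match had a median difference between number 3 and the other numbers of 2.15 (log2, 0.56 to 7.59). The 7 tested genes with a window but no match had a median of 3.13 (1.07 to 3.57), within the same range.

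B2 changed none of these genes detectably. Of the 38, 35 had counts high enough to test, IFI44, IFI44L and EPSTI1 being too low, and 0 of the 35 passed edgeR's quasi-likelihood test at an adjusted p of 0.05, against a background of 0% of 17224 genes. At an unadjusted p under 0.05 there were 0 of 35 members (background 0.493%). Limma-voom called 0 of 35, and DESeq2 0 of the 30 members for which it gave a p. For each tested member the edgeR adjusted p was 1.0. The B2 and DMSO libraries overlapped for 35 of 35 members, while over all genes the groups did not overlap for 3.56%. In 14 members the log2 fold change was above 0 and in 21 below, with a median of -0.03 (all genes -0.08, with 37.9% of genes above 0).

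The precision was low in this fit, which leaves out the replicate number, so that differences between numbers enter the error. The median standard error (SE) of the members' log2 fold change was 0.82, against 0.41 for all genes. With the replicate number as a block the members' median SE was 0.29. Without the block the members' median fold change moved to -1.20 when B2 replicate 3 was left out and to 0.94 when DMSO replicate 3 was left out. It moved to between -0.47 and 0.29 without any other single library.

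Differences between the replicate numbers were large. Fitted beside treatment, the numbers differed for 21 of the 35 tested members (60%; edgeR F test over the 3 numbers, adjusted p below 0.05), against a background of 2.68% of genes. All 21 were highest in number 3, which held for 2.14% of all genes. The median difference of number 3 from the mean of numbers 1 and 2 was 2.07 on the log2 scale, against -0.05 for all genes, and it was above 0 in 35 of 35 members (46.7% of genes). It reached 2 or more in 18 of 35 (background 2.55%) and 1 or more in 28 of 35 (background 7.71%). In 32 of the 35 both libraries numbered 3 lay above the other 4, against 12.3% of all genes. With single libraries left out the median difference stayed between 2.04 and 2.27 for the 35 members and between -0.06 and 0.04 for all genes. The count of members called changed with the library left out. Number 3 was singled out with results of these data known, so these counts and medians describe the libraries.

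**Figure D1:**
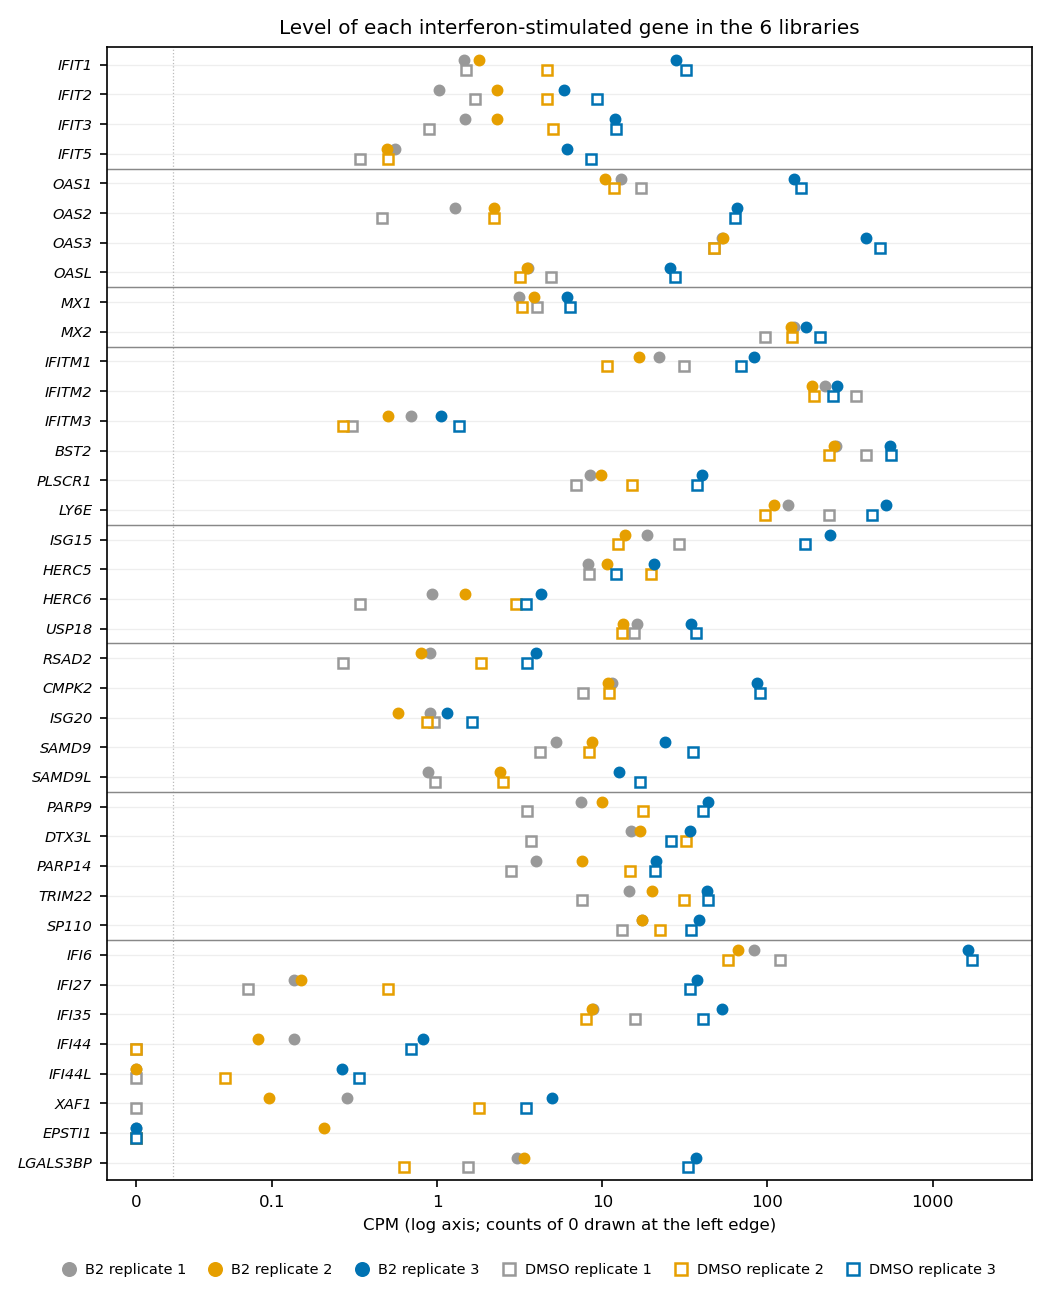
Level of each of the 38 genes in CPM (horizontal log axis, counts of 0 at the left edge) in the 6 libraries, grouped by role from RNA-binding IFIT genes at the top to small inducible proteins at the bottom; filled circles are B2, open squares DMSO, and colour gives the replicate number. The 2 libraries numbered 3 lie to the right of the other 4 for 34 of 38 genes. Among tested genes this held for 32 of 35 members and 12.3% of all genes. Within number 3, 18 of 38 genes are higher with B2 than with DMSO (17 of the 35 tested, background 47.1%).

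In what follows CPM values are listed in the order of replicates 1, 2 and 3. The first value in parentheses after them is the log2 difference of number 3 from the mean of numbers 1 and 2, with its SE and the adjusted p of the F test over numbers. A value after B2 is the log2 fold change of B2 over DMSO, with its SE, from the fit without the block unless the block is named.

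The IFIT genes, clustered on chromosome 10, encode proteins that bind the ends of foreign RNA. IFIT1 (GRCh38 89392546 to 89406486) stood at 1.45, 1.79 and 28.0 CPM in B2 replicates 1, 2 and 3 and at 1.49, 4.60 and 32.0 CPM in DMSO replicates 1, 2 and 3. Number 3 was thus above the rest in both treatments, by 3.83 on the log2 scale (SE 0.33, edgeR adjusted p = 9.21e-05). The B2 over DMSO fold change of IFIT1 was -0.29 (SE 1.31). IFIT5, an RNA binder of the same cluster, stood at 0.555, 0.493 and 6.11 CPM with B2, against 0.340, 0.502 and 8.59 CPM with DMSO, again without overlap between number 3 and the others (3.95, SE 0.36, adjusted p = 1.52e-04; B2 over DMSO -0.41, SE 1.34). IFIT3, which stabilises IFIT1 in a complex, stood at 1.46, 2.30 and 11.9 CPM with B2, against 0.896, 5.00 and 12.03 CPM with DMSO. Its difference of number 3 was 2.53 (SE 0.36, adjusted p = 0.00349; 0.0542 without DMSO replicate 1) and its B2 fold change -0.20 (SE 0.98).

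IFIT2, the remaining IFIT gene and one linked to cell death, was the tested member with the smallest p for B2. It stood at 1.03, 2.29 and 5.86 CPM with B2, against 1.70, 4.62 and 9.29 CPM with DMSO. Each B2 library lay below the DMSO library of the same number, although the groups overlapped. Its log2 fold change was -0.77 (SE 0.74, 95% interval -2.47 to 0.93, unadjusted p = 0.329, edgeR adjusted p = 1.0). With the replicate number as a block the value was -0.80 (SE 0.29, interval -1.44 to -0.16, unadjusted p = 0.0184, adjusted p = 1.0). IFIT2 differed by 1.83 (SE 0.30, adjusted p = 0.00722; 0.0588 without DMSO replicate 1) between number 3 and the others. Its exons share 356 bases with another annotated gene on the same strand, so its counts are uncertain.

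OAS1, OAS2 and OAS3, neighbours on chromosome 12, make the second messenger 2-5A. OAS2 stood at 1.27, 2.20 and 65.5 CPM with B2, against 0.466, 2.22 and 63.7 CPM with DMSO. Number 3 exceeded the others by 5.57 on the log2 scale (SE 0.36, adjusted p = 1.24e-05), the second largest difference among the members, while the B2 fold change was 0.05 (SE 1.77). OAS1 stood at 13.0, 10.4 and 145 CPM with B2, against 17.2, 11.8 and 160 CPM with DMSO (number 3 higher by 3.57, SE 0.26, adjusted p = 2.95e-05; B2 fold change -0.17, SE 1.21). OAS3, with the highest CPM of the family, stood at 52.9, 53.8 and 397 CPM with B2, against 47.4, 47.4 and 478 CPM with DMSO (3.12, SE 0.25, adjusted p = 5.68e-05; B2 -0.18, SE 1.07). OASL, a relative without synthetase activity, stood at 3.56, 3.50 and 25.5 CPM with B2, against 4.89, 3.16 and 27.4 CPM with DMSO (2.82, SE 0.28, adjusted p = 2.78e-04; B2 -0.12, SE 0.99). All 4 OAS genes thus had number 3 apart and overlapping treatments.

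The MX genes on chromosome 21 did not pass the test between numbers. MX2, a nuclear envelope protein that blocks HIV, stood at 145, 139 and 172 CPM with B2, against 97.0, 140 and 209 CPM with DMSO (0.56, SE 0.27, edgeR adjusted p = 0.357). MX1, which acts on influenza and other RNA viruses, was low, at 3.14, 3.87 and 6.14 CPM with B2, against 4.03, 3.26 and 6.37 CPM with DMSO (0.81, SE 0.30, adjusted p = 0.248). The B2 fold changes were 0.03 (SE 0.32) for MX2 and -0.05 (SE 0.40) for MX1, with 95% intervals from -0.70 to 0.77 and from -0.98 to 0.87. These were among the narrower intervals in the list.

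Among the membrane proteins the levels differed widely. BST2 (tetherin, which holds budding virions on the cell) was high everywhere, at 261, 254 and 552 CPM with B2, against 398, 237 and 563 CPM with DMSO. Both libraries numbered 3 were highest, but the numbers did not pass the test (0.98, SE 0.25, adjusted p = 0.104; B2 -0.17, SE 0.43). IFITM2, a restriction factor of endosomes, stood at 224, 187 and 264 CPM with B2, against 343, 191 and 249 CPM with DMSO, and number 3 overlapped with the rest. Its difference of 0.16 (SE 0.26, adjusted p = 0.426) was the smallest in the list and turned to -0.01 without B2 replicate 1 and to -0.04 without B2 replicate 3. Its B2 fold change was -0.22 (SE 0.30).

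IFITM1, which sits at the plasma membrane, stood at 22.0, 16.6 and 82.3 CPM with B2, against 31.1, 10.7 and 69.3 CPM with DMSO (number 3 higher by 1.99, SE 0.30, adjusted p = 0.00546; B2 0.12, SE 0.76). Its call was lost without B2 replicate 3 (adjusted p = 0.102). IFITM1 and IFITM2 share 351 exon bases on the same strand and a similar sequence, so reads may have been exchanged between them. IFITM3, their endosomal relative and a strong restrictor of influenza virus, was barely read, at 0.691, 0.506 and 1.06 CPM with B2, against 0.305, 0.271 and 1.35 CPM with DMSO (1.57, SE 0.56, adjusted p = 0.223; B2 0.22, SE 0.71). It too has near-identical relatives.

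LY6E, a lipid-anchored surface protein, stood at 132, 110 and 524 CPM with B2, against 235, 96.8 and 431 CPM with DMSO (1.81, SE 0.28, adjusted p = 0.00722; B2 0.01, SE 0.70). PLSCR1, a phospholipid scramblase, stood at 8.44, 9.84 and 40.3 CPM with B2, against 6.88, 15.1 and 37.5 CPM with DMSO (1.99, SE 0.29, adjusted p = 0.0055; B2 -0.02, SE 0.75). In both genes number 3 lay above every other library. Without B2 replicate 3 both calls were lost, at adjusted p = 0.21 for LY6E and 0.126 for PLSCR1.

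ISG15, a ubiquitin-like protein that is attached to other proteins, stood at 18.5, 13.6 and 238 CPM with B2, against 29.1, 12.4 and 168 CPM with DMSO. Number 3 was higher by 3.53 (SE 0.29, adjusted p = 7.15e-05). Its B2 fold change of 0.37 (SE 1.21, 95% interval -2.40 to 3.14) was the largest positive one among the members and was -0.37 when both libraries numbered 3 were left out. The enzymes around ISG15 that are in the list did not pass between numbers. HERC5, the ligase that attaches it, stood at 8.17, 10.7 and 20.5 CPM with B2, against 8.33, 19.6 and 12.1 CPM with DMSO, where replicate 2 exceeded replicate 3 (0.56, SE 0.34, adjusted p = 0.262, and -0.09 without B2 replicate 3; B2 -0.02, SE 0.46). USP18, which removes ISG15 and damps the receptor, stood at 16.1, 13.4 and 34.2 CPM with B2, against 15.6, 13.1 and 37.0 CPM with DMSO. Its numbers just missed the threshold (1.30, SE 0.27, adjusted p = 0.0536; B2 -0.05, SE 0.51). HERC6, a relative of HERC5, stood at 0.935, 1.48 and 4.28 CPM with B2, against 0.340, 2.99 and 3.47 CPM with DMSO (1.68, SE 0.44, adjusted p = 0.0653).

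**Figure D2:**
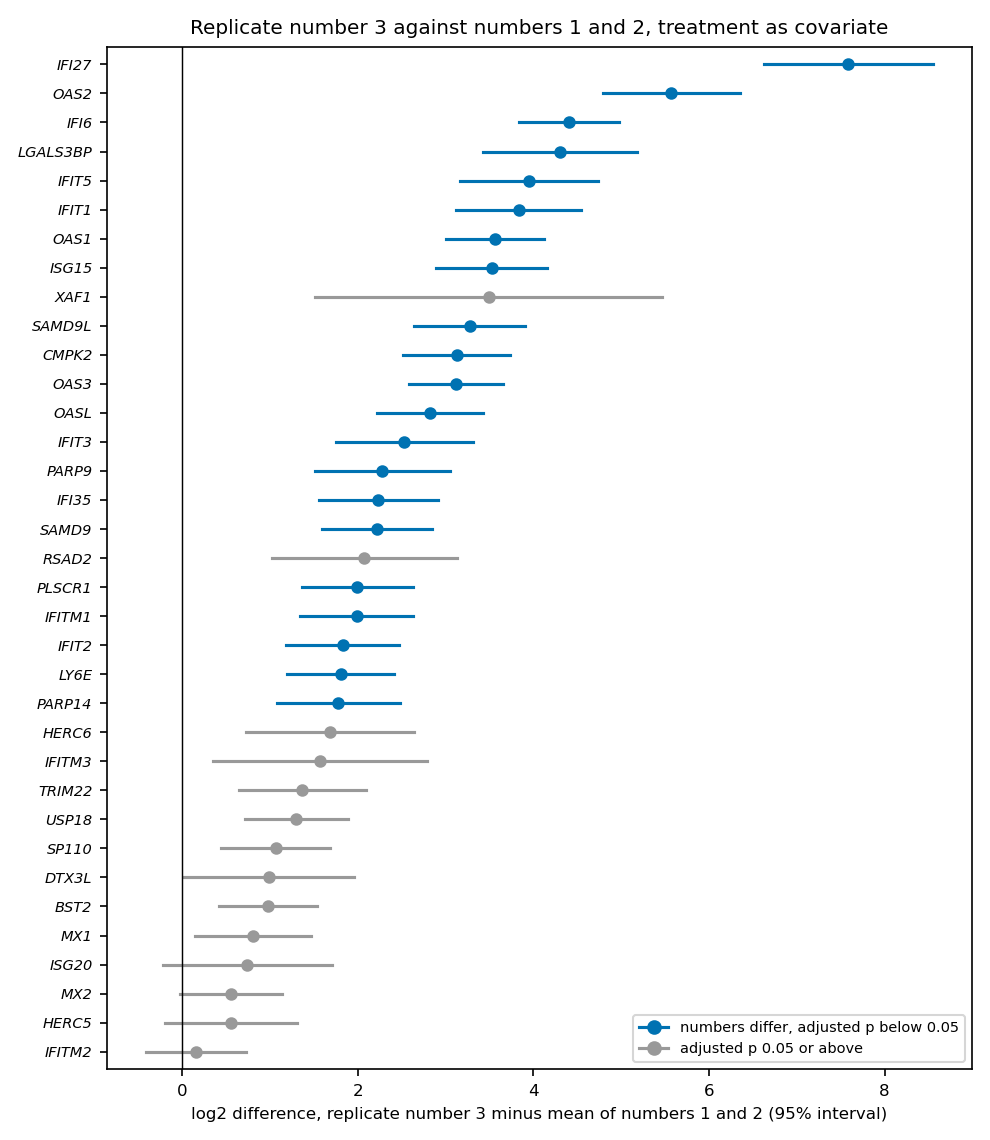
Difference of replicate number 3 from the mean of numbers 1 and 2 for the 35 tested genes (horizontal axis, log2, with treatment as a covariate); points are edgeR estimates, lines are 95% intervals, and blue marks genes whose numbers differed at an adjusted p below 0.05. All 35 points lie above 0 (46.7% of all tested genes do), from 0.16 for IFITM2 to 7.59 for IFI27. Blue points number 21 of 35, against 2.68% of all tested genes.

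Enzymes of nucleotides and RNA fell into called and uncalled genes. CMPK2, a mitochondrial nucleotide kinase, stood at 11.4, 10.8 and 87.0 CPM with B2, against 7.63, 11.0 and 90.1 CPM with DMSO (3.13, SE 0.28, adjusted p = 1.34e-04). RSAD2 (viperin, which makes a chain-terminating nucleotide), the neighbour of CMPK2 on chromosome 2, stood at 0.908, 0.794 and 3.95 CPM with B2, against 0.269, 1.83 and 3.50 CPM with DMSO (2.07, SE 0.48, adjusted p = 0.0719; B2 0.00, SE 0.90). The exonuclease ISG20 had the second smallest p for B2, at 0.908, 0.575 and 1.14 CPM with B2, against 0.950, 0.863 and 1.62 CPM with DMSO. Its B2 fold change was -0.39 (SE 0.47, unadjusted p = 0.428) and its difference of number 3 was 0.74 (SE 0.44, adjusted p = 0.454). SAMD9 and SAMD9L, adjacent genes on chromosome 7 whose products halt translation, passed between numbers (2.22 with SE 0.29 and 3.27 with SE 0.29, adjusted p = 0.00224 and 1.12e-04). SAMD9 stood at 5.22, 8.67 and 24.1 CPM with B2, against 4.19, 8.33 and 35.2 CPM with DMSO. SAMD9L stood at 0.881, 2.40 and 12.5 CPM with B2, against 0.968, 2.49 and 16.8 CPM with DMSO.

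PARP9 and its partner, the ubiquitin ligase DTX3L, lie head to head on chromosome 3 with 217 exon bases overlapping on opposite strands, and the strand setting of the counting is not given in the sources used here. PARP9 stood at 7.45, 9.90 and 43.5 CPM with B2, against 3.51, 17.7 and 40.9 CPM with DMSO (2.28, SE 0.35, adjusted p = 0.00695). DTX3L stood at 15.01, 16.9 and 33.8 CPM with B2, against 3.71, 32.2 and 26.2 CPM with DMSO, where replicate 2 was highest (0.99, SE 0.44, adjusted p = 0.16). PARP14, a mono-ADP-ribosyltransferase, stood at 3.97, 7.56 and 21.0 CPM with B2, against 2.79, 14.8 and 20.9 CPM with DMSO, and rose in number 3 by 1.78 (SE 0.32, adjusted p = 0.0103). TRIM22 and SP110, nuclear proteins, did not pass, with 1.37 (SE 0.33, adjusted p = 0.0563) and 1.07 (SE 0.28, adjusted p = 0.113). TRIM22 stood at 14.5, 19.9 and 43.1 CPM with B2, against 7.58, 31.2 and 43.4 CPM with DMSO. SP110 stood at 17.4, 17.4 and 38.6 CPM with B2, against 13.2, 22.3 and 34.4 CPM with DMSO, so that number 3 was highest in both genes. TRIM22 shares 642 exon bases on the same strand with OR56B1, and SP110 shares 1262 with an antisense gene.

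IFI6 (chromosome 1, 27666061 to 27672218, minus strand), a small protein that protects against flavivirus replication and cell death, was the most abundant member in number 3. It stood at 83.1, 66.6 and 1628 CPM with B2, against 119, 57.8 and 1726 CPM with DMSO. The B2 and DMSO values lay close together within number 3, and the B2 fold change was -0.10 (SE 1.46). Number 3 was higher by 4.41 (SE 0.26, adjusted p = 6.32e-06). IFI27 (chromosome 14, 94104836 to 94116698), a mitochondrial and nuclear envelope protein, had the largest difference, at 0.136, 0.151 and 37.4 CPM with B2, against 0.0717, 0.502 and 33.9 CPM with DMSO. That is 10, 11 and 2266 counts with B2 and 4, 39 and 2627 with DMSO. Its difference of number 3 was 7.59 (SE 0.44, adjusted p = 5.69e-06) and its B2 fold change 0.13 (SE 2.19).

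IFI35, a leucine zipper protein, stood at 8.78, 8.61 and 53.1 CPM with B2, against 15.7, 7.91 and 40.7 CPM with DMSO (2.23, SE 0.31, adjusted p = 0.00411). XAF1, which binds the apoptosis inhibitor XIAP, stood at 0.284, 0.0958 and 4.94 CPM with B2, against 0, 1.78 and 3.43 CPM with DMSO. Number 3 was higher by 3.49 (SE 0.90, adjusted p = 0.102), the members' widest error, and 2535 of its exon bases lie opposite an antisense gene. The B2 fold change of XAF1 was 0.02 (SE 1.59). IFI44 and IFI44L, neighbours on chromosome 1, were not tested. IFI44 reached 0.825 and 0.696 CPM in the libraries numbered 3 (50 and 54 counts) and at most 0.136 elsewhere, and IFI44L reached 0.264 and 0.335 CPM and at most 0.0515 elsewhere. EPSTI1 had 15 counts in B2 replicate 2 and 0 in the other 5 libraries.

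LGALS3BP, a secreted glycoprotein, was the member whose pairs all pointed upward, and it was singled out after its values were seen. It stood at 3.05, 3.34 and 36.9 CPM with B2, against 1.54, 0.631 and 33.1 CPM with DMSO. Each B2 library lay above the DMSO library of the same number, while the groups as a whole overlapped. Its B2 fold change was 0.29 (SE 1.43), and 1.13 with the replicate number as a block (SE 0.39, 95% interval 0.27 to 1.99, unadjusted p = 0.0146, edgeR adjusted p = 1.0). Number 3 exceeded the others by 4.30 (SE 0.40, adjusted p = 1.82e-04). B2 was higher in all 3 pairs for 1 of 35 members (background 6.71%) and lower in all 3 for 5 of 35 (background 9.2%), namely IFIT1, IFIT2, ISG20, OAS1 and SAMD9L. With the block 2 of 35 members, IFIT2 and LGALS3BP, had an unadjusted p under 0.05 (background 1.32%), and 0 of 35 passed after adjustment (background 0%).

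Within pairs the members did not move one way. B2 was higher in 20 of 35 members in number 1 (background 52.8%), in 13 of 35 in number 2 (background 48.4%) and in 17 of 35 in number 3 (background 47.1%). Several genes changed sign between numbers 1 and 2, among them DTX3L (2.01 and -0.93 on the log2 CPM scale with a prior count of 2), PARP9 (1.08 and -0.84) and RSAD2 (1.65 and -1.18). DMSO replicates 1 and 2 also lay apart, where DTX3L stood at 3.71 and 32.2 CPM and TRIM22 at 7.58 and 31.2, while LY6E (235 and 96.8) and ISG15 (29.1 and 12.4) were ordered the other way. DMSO replicate 1 was the lowest of the 4 libraries numbered 1 and 2 for 17 of 35 members (background 43.2%), and DMSO replicate 2 the highest for 16 of 35 (background 39.6%). These differences moved with the base composition of the transcripts. Across the 35 members the Spearman correlation of DMSO replicate 2 minus 1 with the GC content of each gene's longest transcript was -0.73. Across 17015 genes it was -0.57. For B2 replicate 2 minus 1 it was -0.55 over the members and -0.43 over the 17015 genes. For B2 minus DMSO it was -0.43 in number 1, 0.65 in number 2 and 0.20 in number 3 over the members. For number 3 against the others it was -0.07 over the members. Genes are not independent replicates and these libraries enter several of the differences, so the values are descriptions, and the part of composition in the pair differences was not tested.

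**Figure D3:**
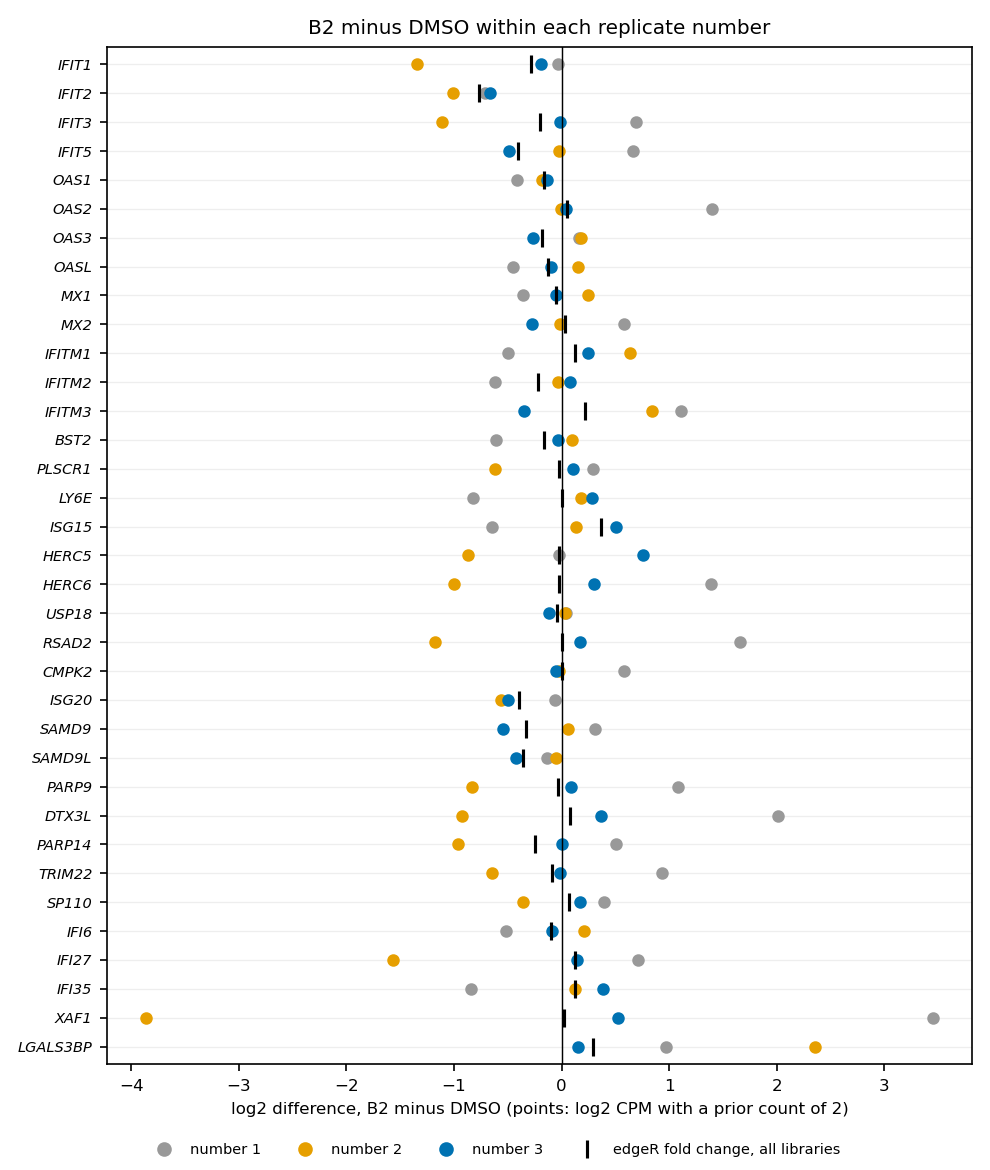
B2 minus DMSO within each replicate number for the 35 tested genes (horizontal axis, log2 CPM difference, grey for number 1, orange for number 2, blue for number 3); black ticks are the edgeR fold changes over all libraries. Points of numbers 1 and 2 scatter to both sides of 0, from -3.86 to 3.45 for XAF1, and those of number 3 stay closer to 0, between -0.66 for IFIT2 and 0.76 for HERC5.

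As a sum, the 38 members held 1089, 1009 and 4694 CPM in B2 replicates 1, 2 and 3 and 1423, 1033 and 4729 CPM in the DMSO replicates. IFI6 made up 34.7% and 36.5% of the sum in the libraries numbered 3 and 5.59% to 8.35% in the others. Without IFI6 the sums were 1006, 943 and 3067 CPM with B2, against 1305, 976 and 3003 CPM with DMSO, so number 3 stayed highest. The makeup of the sum changed as well. In numbers 1 and 2 only IFITM2 and BST2 reached 100 CPM in all 4 libraries, and 7 members stayed below 1 CPM in all 4. In number 3 IFI6, ISG15, OAS1, OAS3, MX2 and LY6E also reached 100 CPM in both libraries. For MX2 and LY6E this rests on the cut. In numbers 1 and 2 MX2 missed it only in DMSO replicate 1 (97.0 CPM) and LY6E only in DMSO replicate 2 (96.8 CPM).

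Levels can be ordered between genes after division by exon length. In number 3 IFI6 led with 1939 CPM per kb, ahead of BST2 with 498, ISG15 with 216, LY6E with 181, IFITM2 with 166 and IFITM1 with 70.2. The ranges of LY6E overlapped there with those of ISG15 and of IFITM2. Within both libraries ISG15 lay above LY6E and LY6E above IFITM2. In DMSO replicate 3 these values were close, at 178.3, 163.4 and 161.5 CPM per kb. In numbers 1 and 2 BST2 led with 257 CPM per kb, followed by IFITM2 with 153, IFI6 with 94.3, LY6E with 54.3, ISG15 with 19.6 and IFITM1 with 18.6. Each of these genes overlapped with the next over the 4 libraries, except LY6E with ISG15. Within each of the 4 libraries BST2, IFITM2, IFI6, LY6E and ISG15 kept this order, while ISG15 lay below IFITM1 in both B2 libraries. In bulk RNA a difference in the share of cells that carry a transcript and a difference in RNA per cell cannot be told apart.

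Other genes of the pathway were taken from a list of 63, of which 45 were tested. For B2 none of the 45 passed (13 above 0 and 32 below, median -0.08). Between numbers 13 of 45 passed, all highest in number 3 (background 2.68%), with 36 of 45 above 0 and a median difference of 0.53, lower than the members' 2.07. Ligands were nearly absent. Of 10 interferon genes 8 were at 0 in every library, IFNA2 was read in DMSO replicate 1 alone (0.143 CPM) and IFNB1 in DMSO replicate 3 alone (0.0515 CPM, near the floor). Of 6 receptor subunits IFNLR1 was too low to test (at most 0.151 CPM), and of the 5 tested only IFNGR1, of the type II receptor, passed (1.59, SE 0.27, edgeR adjusted p = 0.0163).

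IRF9 and STAT2, which act together in the nucleus, rose in number 3. IRF9 stood at 5.84, 6.63 and 51.2 CPM with B2, against 8.35, 6.50 and 82.0 CPM with DMSO (3.26, SE 0.29, edgeR adjusted p = 1.23e-04). Of its 3794 exon bases 1838 are shared with another annotated gene on the same strand, so the counts of IRF9 are uncertain. STAT2 rose by 1.40 (SE 0.25, adjusted p = 0.0271). IRF7, the amplifier of interferon transcription, stood at 10.3, 9.08 and 99.8 CPM with B2, against 15.3, 9.13 and 88.8 CPM with DMSO (3.14, SE 0.28, adjusted p = 1.33e-04). The kinases JAK1, JAK2 and TYK2 and the factors IRF1, IRF3 and IRF5 did not pass, nor did any of the 6 negative regulators.

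Of 9 tested genes in the list of RNA and DNA sensing, 4 passed (background 2.68%). All 4 were RNA sensors, namely RIGI (2.28, SE 0.35), IFIH1 (1.98, SE 0.28), DHX58 (2.70, SE 0.27) and TLR8 (4.21, SE 0.37). MAVS, the adapter of RIGI and IFIH1, did not pass (-0.20, SE 0.25), nor did the DNA sensor CGAS, its adapter STING1 or the kinases TBK1 and IKBKE. UBA7, the enzyme that activates ISG15, passed with 1.59 (SE 0.25, adjusted p = 0.0083), and its conjugating partner UBE2L6 did not (0.98, SE 0.25, adjusted p = 0.096). The RNA-activated kinase EIF2AK2 passed (1.57, SE 0.35, adjusted p = 0.0355). Of the genes led by interferon-gamma, GBP2 and GBP5 passed among 6 tested (3.24 and 2.15, background 2.68%). CXCL10 was too low to test, at 2.13 and 3.45 CPM in the libraries numbered 3 and 0 in the other 4.

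**Figure D4:**
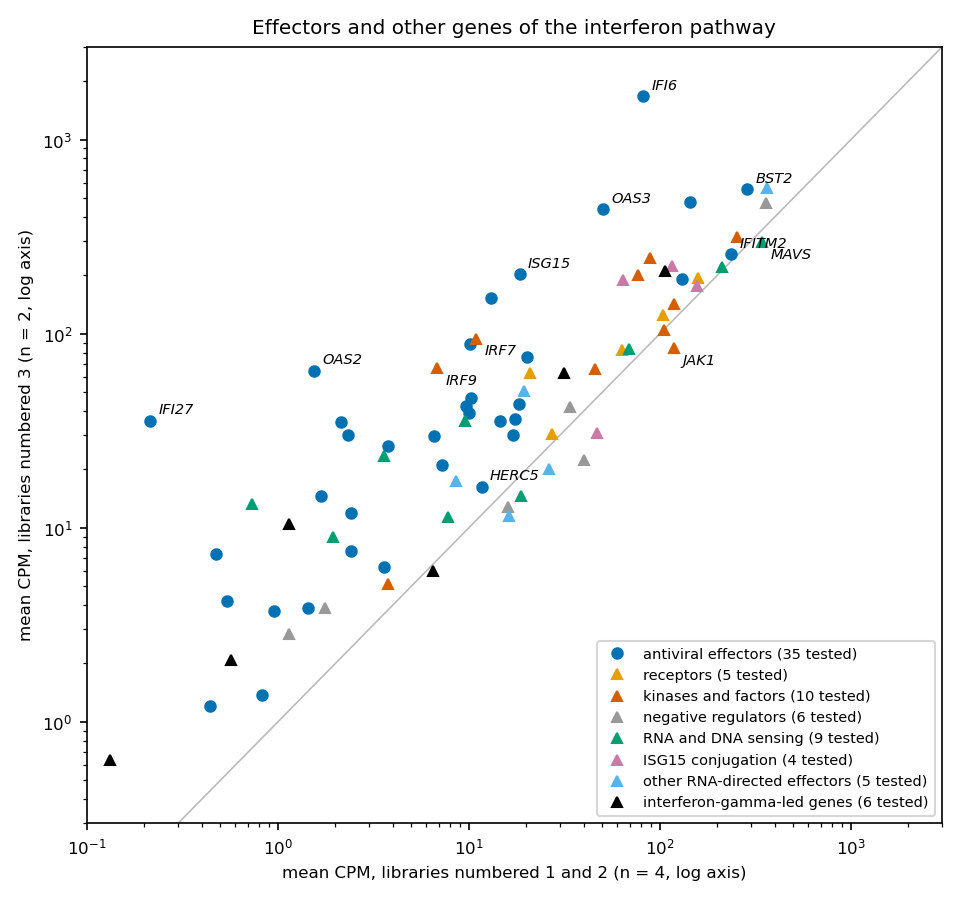
Mean CPM in the 2 libraries numbered 3 (vertical log axis) against the mean in the 4 numbered 1 and 2 (horizontal log axis) for the 35 tested effectors (blue circles) and 45 tested genes of the wider pathway (triangles, coloured by list); the line marks equal levels. IFI27, OAS2 and IFI6 lie far above the line, IRF9 and IRF7 lie above it, and IFITM2, MAVS and JAK1 lie near it.

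Markers of some other cell states moved with number 3 in the same libraries. The summed level of 16 monocyte and macrophage markers was 139 to 219 CPM in the libraries numbered 1 and 2 and 1769 and 1980 CPM in those numbered 3. Of 12 tested, 10 passed between numbers and were highest in number 3 (background 2.14%). Among them were SIGLEC1 (2.79 to 3.78 CPM against 478 and 519 CPM), CD14 (0.361 to 1.29 against 121 and 110 CPM) and CD163. APOE went the other way, lower in both libraries numbered 3 than in the other 4 (-1.23, SE 0.45, adjusted p = 0.15), without passing. MRC1 was at 0 in all libraries and MSR1 at 0 in 5. Neutrophil markers summed to 8.94 to 21.3 CPM and to 296 and 311 CPM. MMP9 and CEACAM8 passed among 3 tested (background 2.68%). MMP9 alone held 271 and 285 CPM of the sums in number 3, and CXCR2 stood at 15.01 and 15.9 CPM there, within its range in the other 4 libraries (5.55 to 19.0 CPM). CD2 of T cells and PTCRA of plasmacytoid dendritic cells passed at low levels (at most 4.57 and 6.26 CPM). Epithelial transcripts summed to 33.4 to 43.5 CPM with B2, against 4.34, 12.9 and 31.1 CPM with DMSO. In either comparison 0 of 8 passed (background 0% for B2, 2.68% between numbers). All 8 had a B2 fold change above 0 (median 1.17) and a difference of number 3 above 0 (median 1.14). For KRT8, number 3 was 1.05 times the mean of numbers 1 and 2 with B2 and 6.97 times with DMSO. KRT18 (1.32 and 6.63) and KRT19 (1.16 and 4.07) had the same order, CLDN4 (2.57 and 0.739) and CDH1 (1.97 and 1.79) the reverse. KRT8 and KRT19 did not overlap between B2 and DMSO (background 3.56%). What part these differences have in the levels of the interferon-stimulated genes was not tested.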

How the data were processed

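RNA abundance was measured in 6 U937 libraries, 3 with B2 and 3 with DMSO. The authors deposited 1 table of unnormalized estimated counts (expected counts) per Ensembl gene, already whole numbers, so rounding changed nothing. Per the submitters' processing notes, reads were aligned with HISAT2 2.0.4. How reads were counted, on which build and annotation and with which strand setting, is not given in the sources used here. Among low counts, the value 4 occurred 6465 times, against 3144 for 3 and 2022 for 5, so small counts are inexact and counts divided by 4 were an alternative. Symbols came from a gene name table (60401 of 60612 identifiers) and positions and exon lengths from GENCODE 29 (GRCh38, 58394 identifiers).

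The filter on low counts (filterByExpr in edgeR, 10 counts at the median depth in at least 3 libraries and a total of 15) left 17224 genes. Since number 3 has only 2 libraries, no gene passed this filter through number 3 alone in the fits on all 6 libraries. With a library numbered 1 or 2 left out, the smaller treatment group has 2 libraries and the filter asks for only 2. A gene such as IFI44 could then pass through number 3 alone. TMM factors were 0.86 to 1.07. CPM are edgeR's depth-scaled counts, computed with the TMM-scaled total. The main fit (edgeR 4.0.16, R 4.3.3, glmQLFit and glmQLFTest) had treatment as its only term. A second fit of treatment plus replicate number gave an F test over the numbers. Adjusted p-values are Benjamini-Hochberg over all tested genes (threshold 0.05) and come from edgeR unless another tool is named. After each group's mean was subtracted, the B2 and DMSO libraries of 1 number correlated across genes at 0.21 (number 1), 0.40 (number 2) and 0.50 (number 3). Each is above 0.1, so libraries of 1 number were treated as a pair and a fit with that block was run. No label states this pairing, and number 3 contributes most to it. The group means include number 3, so genes that stand apart there give numbers 1 and 2 a shared deviation in both groups. Correlations between unlike numbers were not compared, so these values cannot show that number 1 pairs with 1 or 2 with 2.

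The rule for named genes gave every member its levels, full statistics to 24 members chosen by role, to the 2 with the smallest p for B2 in each direction and to the 3 with the smallest difference between numbers. The members and lists were chosen with earlier results of these data known. Alternatives were RLE and upper-quartile factors, library totals, 2 other filters, DESeq2 1.42.0, limma-voom 3.58.1, the block, both libraries numbered 3 left out and each library left out. The scripts were tested on simulated data. Results for some single genes of the wider pathway are not reported here.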

Additional observations from a re-analysis of the deposited data

How the results depend on the processing

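Without any 1 library the count of members called for B2 stayed at 0, and it was 0 under each alternative run. Over all genes the B2 count was 3 with DESeq2, 48 with both libraries numbered 3 left out and the replicate block, and 0 to 1 with single libraries left out. With the replicate block alone it was 0, the smallest adjusted p was 0.127, and the members' median SE was 0.29 against 0.82 without it; the block changed no call. The members' B2 median was -0.27 with both libraries numbered 3 left out, and ranged from -1.20 to 0.94 with single libraries left out. The sign of the members' B2 fold changes depended on the setting for 23 of 25 members. With RLE factors HERC5 was 0.0022 and LY6E -0.0097, with upper-quartile factors HERC5 was 0.030 and PLSCR1 0.012, and with library totals MX1 was 0.021, USP18 0.014, HERC5 7e-04 and XAF1 -0.009. HERC5 was 4e-04 with no filter and 0.0023 with the stricter one, where PLSCR1 was 0.0019. LY6E was -0.016 with DESeq2. With limma-voom OAS3 was 0.0081, ISG15 -0.051, IFI27 -0.62, XAF1 -0.13 and LY6E -0.12. With counts divided by 4 HERC5 was 0.0012 and RSAD2 -5e-04. With the replicate block IFIT5 was 0.013, OAS3 0.025, IFI27 -0.30, XAF1 -0.16 and LY6E -0.12. With both libraries numbered 3 left out IFIT5 was 0.31, OAS3 0.17, IFITM1 -0.11, ISG15 -0.37, USP18 0.038, RSAD2 -0.31, IFI27 -1.01, XAF1 -2.22 and LY6E -0.46. With the block added to that, IFIT5 was 0.33, OAS3 0.17, ISG15 -0.26, USP18 0.037, IFI27 -0.52, XAF1 -0.61 and LY6E -0.32. With each library left out in turn the B2 fold change ranged as follows: IFIT1 from -2.97 to 1.77, IFIT3 -1.67 to 0.82, IFIT5 -2.59 to 2.49, OAS1 -2.43 to 1.95, OAS2 -3.67 to 4.09, OAS3 -1.84 to 1.83, OASL -1.74 to 1.43, MX1 -0.38 to 0.27, MX2 -0.19 to 0.36, IFITM1 -0.94 to 0.95, IFITM2 -0.43 to 0.041, and IFITM3 -0.15 to 1.38. It ranged for BST2 from -0.63 to 0.16, ISG15 -2.12 to 2.12, USP18 -0.58 to 0.56, HERC5 -0.50 to 0.34, RSAD2 -1.14 to 0.83, IFI6 -3.09 to 2.75, IFI27 -6.31 to 5.41, XAF1 -3.18 to 0.98, PLSCR1 -1.12 to 0.83, LY6E -1.07 to 0.62 and LGALS3BP -1.89 to 3.74. The cause of these changes was not tested. IFIT2 and ISG20 kept their sign under every setting run.

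Between replicate numbers the count of members called was 21, with 26 under RLE or upper-quartile factors, 19 with library totals, 27 with the stricter filter or counts divided by 4, 28 with DESeq2 or limma-voom, and 17 (without B2 replicate 3) to 31 (without B2 replicate 1) with single libraries left out. All genes called numbered 461, against 956 with RLE factors, 1168 with upper-quartile factors, 266 with library totals, 2078 with the stricter filter, 1671 with DESeq2, 1278 with limma-voom, 2379 with counts divided by 4, and 388 to 4124 with single libraries left out, with 4124 without B2 replicate 1 and 1726 without B2 replicate 2. The difference of number 3 ranged from -0.044 to 0.38 for IFITM2 and from -0.092 to 1.12 for HERC5, and kept its sign for the other 23 of 25 members run. Calls were lost for IFITM1, PLSCR1 and LY6E without B2 replicate 3 and for IFIT2 and IFIT3 without DMSO replicate 1 (adjusted p = 0.0588 and 0.0542), and gained in some settings for BST2, USP18, RSAD2 and XAF1. With a library numbered 1 or 2 left out, genes could pass the filter through number 3 alone, so those counts of calls cannot be set against the main one. Depth limits IFI44, IFI44L, EPSTI1, IFITM3 and ISG20, which hold few counts.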
